A study of Mus musculus with 21 samples.

Results

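The protein subunits of oxidative phosphorylation that are encoded in the nucleus were followed across 7 groups of apically resected neonatal mouse hearts. The members were the genes whose symbols begin with Nduf (but not Ndufaf), Uqcr, Cox4i, Cox5, Cox6, Cox7, Cox8 or Atp5, together with Sdha, Sdhb, Sdhc and Sdhd, as far as they reached 1 FPKM or more in 3 or more libraries. FPKM is the number of sequenced fragments per length of transcript and per mapped total. Such a symbol was carried by 84 of 18762 genes, and 83 passed the level, all of them at 1 FPKM or more in every one of the 21 libraries. The gene left out, Cox7b2, reached 0.43 FPKM at most. By symbol 38 members belong to complex I, 4 to complex II, 8 to complex III, 16 to complex IV and 17 to complex V.

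All animals were ICR mice whose ventricular tip (the apex) was resected on postnatal day 1, and RNA of the heart apex was taken at postnatal day 7. Each drug was given under the skin in a course of 7 days. The first drug group was given isoproterenol, which stimulates the heart through β-adrenergic receptors, and each of the other 5 an anti-arrhythmic drug: amiodarone (a blocker of potassium and other channels), metoprolol and propranolol (β-blockers), lidocaine (a sodium channel blocker) and ivabradine (a blocker of the pacemaker current). The treatment label of the control group gives the resection alone and its libraries are titled NS, a code that the labels do not spell out, so whether it was injected is not given in the sources used here. Each group had 3 libraries. No unresected group is among the samples, so every group, the control included, is a resected heart. Doses are not in the labels, which also do not tie a library to 1 animal, so p-values measure the spread between these libraries, which may be technical.

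Oxidative phosphorylation makes most of the ATP of the beating heart. Complex I oxidizes NADH and complex II succinate, both pass electrons through coenzyme Q to complex III, cytochrome c carries them on to complex IV, which reduces oxygen, and complex V, the ATP synthase, uses the proton gradient that complexes I, III and IV build up. Complex II is also an enzyme of the tricarboxylic acid (TCA) cycle and is the only complex whose subunits are all encoded in the nucleus. In the first weeks after birth the mouse heart turns from glycolysis towards fatty acid oxidation, its mitochondria expand, and some complex IV subunits are exchanged for isoforms of heart and skeletal muscle. The subunits encoded in mitochondrial DNA are not analysed here, since the table holds 0 of them.

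Promoters of 4 members, chosen after their values were seen, are shown. Sdha and Atp5b have long transcripts with higher group means for all 6 drugs, though Atp5b did not pass with propranolol. The others are the pair Cox7a1 (the heart and muscle form) and Cox7a2 (the general form), whose ratio passed in no comparison. Ndufs1 and Atp5a1, which like Sdha were higher with each drug, had no matched promoter. Each is the 250 bases before the annotated start in RefSeq on GRCm38.p6, printed 5′ to 3′ on the gene's own strand. Capitals mark letters that match 1 of the motifs searched.
Sdha, chr13:74350241-74350490, minus strand: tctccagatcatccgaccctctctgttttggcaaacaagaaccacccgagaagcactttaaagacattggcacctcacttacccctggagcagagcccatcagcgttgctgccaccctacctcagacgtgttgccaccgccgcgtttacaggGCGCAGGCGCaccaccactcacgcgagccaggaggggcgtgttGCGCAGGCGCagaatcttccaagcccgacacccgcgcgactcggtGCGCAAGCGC
Atp5b, chr10:128083057-128083306, plus strand: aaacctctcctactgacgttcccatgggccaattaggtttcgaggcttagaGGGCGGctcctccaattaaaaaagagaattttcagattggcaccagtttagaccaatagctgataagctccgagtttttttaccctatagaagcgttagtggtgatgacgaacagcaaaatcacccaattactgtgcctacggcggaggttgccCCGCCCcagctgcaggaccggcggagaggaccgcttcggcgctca
Cox7a1, chr7:30183921-30184170, plus strand: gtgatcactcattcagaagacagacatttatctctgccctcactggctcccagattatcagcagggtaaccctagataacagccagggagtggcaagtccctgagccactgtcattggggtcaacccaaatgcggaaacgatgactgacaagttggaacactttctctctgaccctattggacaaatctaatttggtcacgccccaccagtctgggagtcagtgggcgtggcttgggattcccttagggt
Cox7a2, chr9:79759854-79760103, minus strand: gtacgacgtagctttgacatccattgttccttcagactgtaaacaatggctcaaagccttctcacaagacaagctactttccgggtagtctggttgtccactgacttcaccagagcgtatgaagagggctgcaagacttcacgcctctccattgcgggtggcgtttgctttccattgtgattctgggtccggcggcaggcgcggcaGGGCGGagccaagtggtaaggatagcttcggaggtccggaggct
The motifs were searched on both strands as plain letters: CCGGAAG, bound by ETS factors such as GABPA, TGCGC preceded by GCGC and 1 base of any kind, bound by NRF1, AAGGTCA, bound by oestrogen-related receptors, AAGATGG, bound by YY1, GGGCGG, the GC box, and TATAAA, the TATA box. Of the 83 members 69 matched a promoter. The NRF1 letters stood in 18.84% of these promoters, against 4.23% of 27025 promoters of all genes. The ETS letters stood in 17.39%, against 7.83% of all genes, and the receptor letters in 7.25%, against 4.7% of all genes. The GC box stood in 36.23%, against 35.36%, the TATA box in 7.25%, against 14.33%, and the YY1 letters in 2.9%, against 5.18%. The Sdha window held the NRF1 letters 3 times, on the strand opposite to the one printed, the Atp5b window the GC box 2 times and the Cox7a2 window once, and none of the 6 motifs was in the Cox7a1 window. These 6 motifs were kept after a wider set had been counted on the same promoters, which also held the MEF2, CRE and MCAT motifs and longer or shorter forms of the ETS, NRF1, receptor and YY1 letters, so the shares are a description of chosen motifs. A match describes letters, not binding.

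The members were among the most abundant transcripts of the tissue. They took 12.4 ± 0.513% of the summed FPKM in isoproterenol libraries and 11.2 to 11.8% on average in the 5 anti-arrhythmic groups, against 11.7 ± 0.356% in control libraries (SD, n = 3). Atp5b, which carries the catalytic sites of complex V, had the highest mean over all libraries at 3045 FPKM. The highest of the other complexes were Ndufa4 at 1412 FPKM, Sdhb at 559, Uqcr11 at 1311 and Cox4i1 at 2418 FPKM. The median member stood at 419 FPKM in complex I, 441 in complex II, 721 in complex III, 973 in complex IV and 959 FPKM in complex V. The least abundant were Atp5s at 7.76 FPKM and Cox6b2, an isoform best known from testis, at 9.11 FPKM. Atp5s and Atp5sl carry the Atp5 symbol but are not structural subunits of the synthase, and Ndufa4, named after complex I, is now known as a partner of complex IV.

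Libraries correlated with each other at r of 0.973 to 0.996 across genes, and their summed FPKM ran from 496304 to 552905. No counts or read totals are in the table, so the absolute depth is unknown, and the relative depth, read from the step between values of 34 lowly expressed genes, was 0.969 to 1.026. Cardiomyocyte markers were present throughout, with a sum of 10 genes between 44574 and 52149 FPKM in any library. 4 libraries stood apart by transcripts of other tissues. The atrial gene Myl7 was at 176 FPKM in isoproterenol 3, the lung gene Sftpc at 222 FPKM in amiodarone 2, the liver gene Alb at 10.8 FPKM in propranolol 1 and the skeletal muscle gene Mylpf at 62.7 FPKM in control 3. Smaller amounts of the same genes stood elsewhere, such as 9.10 FPKM of Sftpc in lidocaine 1. Mylpf was at 30.4 FPKM in amiodarone 3 and 14.7 FPKM in control 2, both above the value of Alb in propranolol 1. Lidocaine 1, amiodarone 3 and control 2 were kept in the fits without the 4 libraries. For each drug the total count of members called is given with and without the 4 libraries. Counts by kind of subunit and those of pathway genes are given only with them. Ucp1, the defining gene of brown fat, which also uses Cox7a1, was at 0.1 FPKM or less in every library. Of the other brown fat markers listed, Elovl3 was at 0.06 FPKM or less and Dio2 at 0.44 to 1.12 FPKM. Cidea stood at 28.17 to 40.75 FPKM and Ppara at 4.84 to 11.72 FPKM. The part of brown fat in the values of Cox7a1 was not tested. In bulk RNA a smaller number of cells of a type and less RNA per cell cannot be told apart.

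The mean level of each complex, taken as the mean of log2(FPKM + 1) over its members, differed little between groups. For complex I this level was 8.59, 8.71 and 8.72 in the isoproterenol libraries, 8.48, 8.41 and 8.60 with amiodarone, 8.52, 8.59 and 8.47 with metoprolol, 8.50, 8.58 and 8.67 with propranolol, 8.47, 8.61 and 8.50 with lidocaine and 8.80, 8.48 and 8.58 with ivabradine, against 8.72, 8.75 and 8.62 in the control libraries. The highest value belonged to ivabradine 1 and the lowest to amiodarone 2, and only the metoprolol, lidocaine and amiodarone libraries lay wholly below the controls. Complex IV stood at 9.13, 9.23 and 9.19 with isoproterenol and 8.99, 9.04 and 9.04 with lidocaine, against 9.24, 9.34 and 9.22 in controls, and complex V at 9.46, 9.59 and 9.57 with isoproterenol and 9.38, 9.47 and 9.39 with lidocaine, against 9.55, 9.53 and 9.44 in controls. Complex II took the other direction. Its level was 8.79, 8.91 and 8.90 in isoproterenol libraries, against 8.79, 8.71 and 8.62 in controls, and the group means of the 6 drugs were 0.06 to 0.16 above the control mean on this log2 scale. For complexes I and IV they were below the control mean by differences of -0.02 to -0.20 and of -0.08 to -0.24.

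**Figure D1:**
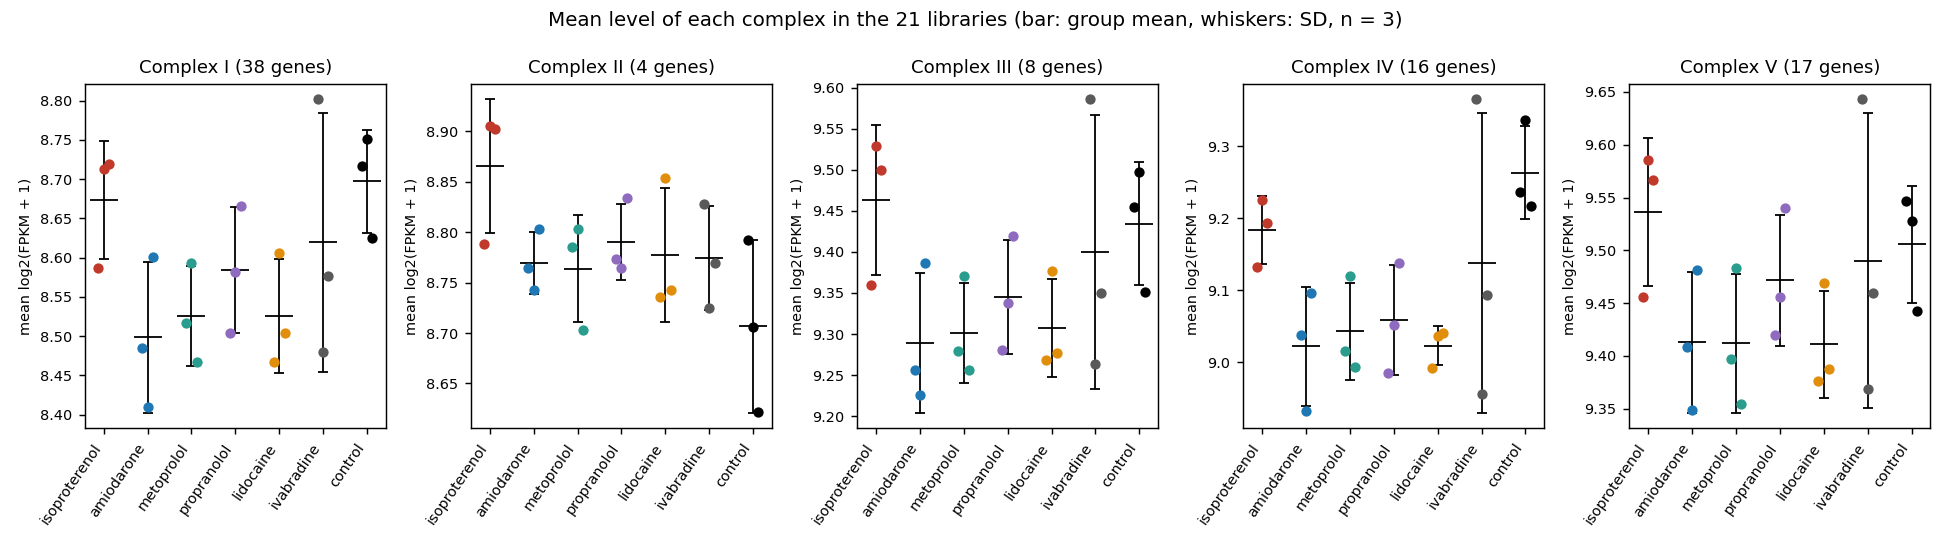
Mean of log2(FPKM + 1) over the members of each complex in the 21 libraries, with the group mean as a bar and the SD as whiskers (n = 3), each panel on its own axis. All 6 drug groups have a lower mean than the controls in complexes I and IV and a higher one in complex II, and ivabradine 1 is the highest library in complexes I, III, IV and V.

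These level differences moved with how the libraries were put on 1 scale. Median-of-ratios rescaling, which sets each library by the middle of its gene-wise ratios, gave factors of 1.05 to 1.07 to the 3 control libraries and 0.966 to 1.012 to the drug libraries. The median gene of the 6 drug comparisons lay at -0.08 to -0.10 log2 as deposited and at 0.00 to -0.01 after it. Complex II then stood 0.14 to 0.27 above the control mean with the 6 drugs. Complex IV remained below the control mean with the 5 anti-arrhythmic drugs, at differences of -0.04 to -0.16, and was 0.03 above it with isoproterenol. Complex I was 0.08 above the control mean with isoproterenol after rescaling, where it had differed by -0.02 as deposited. Counts of members called are therefore given on both scales.

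As deposited, the members changed relative to control with isoproterenol mainly among the large catalytic and core subunits. Of the 83 members 12 were higher and 3 lower, 18.1% of the members, where 34.2% of all 12433 genes tested passed (8.38% higher and 25.8% lower; limma on log2(FPKM + 1), Benjamini-Hochberg adjusted p under 0.05). The median member differed by -0.03 log2, and the median of all genes by -0.09. The higher members belonged to complex I (5 of 38), complex II (2 of 4), complex III (2 of 8) and complex V (3 of 17), and none of the 16 members of complex IV rose. The largest changes were those of Sdha, the flavoprotein that holds the active site of complex II, Ndufs1, the largest core subunit of complex I, Atp5a1 and Atp5b, the α and β subunits of the catalytic head of the ATP synthase, and Uqcrc2, a core protein of complex III. The remaining higher members included Sdhd, which anchors complex II in the membrane, Ndufv1, a core subunit of complex I at the NADH site, the accessory subunits Ndufa9 and Ndufa10, Uqcrc1 of complex III and Atp5c1, the rotating γ subunit. Their log2 fold changes lay between 0.16 and 0.22. The 3 lower members were Cox6b2 (-0.50), Cox8a (-0.24) and Ndufa4l2 (-0.19). After rescaling 15 members were higher and 0 lower, beside 16.3% and 12.8% of all genes. After the length and GC correction described below, 10 of the 29 accessory subunits of complex I were higher, and 7 of the 10 ubiquitous subunits of complex IV, beside 8.78% of all genes. None of either class was lower, beside 28.9% of all genes, and the calls were then no longer mainly among the large subunits. The count as deposited was 9 without control 2, 6 without control 3, 8 without isoproterenol 2 and 5 without isoproterenol 3, and 4 (all higher) without the 4 libraries that held transcripts of other tissues. The shares of all genes in these smaller fits are not given here.

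Sdha, Ndufs1 and Atp5a1 rose with each of the 6 drugs. Sdha stood at 472, 481 and 489 FPKM in the isoproterenol libraries, 457, 452 and 457 FPKM with amiodarone, 483, 454 and 448 FPKM with metoprolol, 456, 432 and 442 FPKM with propranolol, 446, 492 and 447 FPKM with lidocaine and 438, 446 and 458 FPKM with ivabradine, against 398, 342 and 334 FPKM in the control libraries. All 18 drug libraries lay above the highest control library. The log2 fold changes of Sdha against control were 0.43 with isoproterenol, 0.35 with amiodarone, 0.37 with metoprolol, 0.31 with propranolol, 0.37 with lidocaine and 0.33 with ivabradine, each with a standard error of 0.06 and limma adjusted p-values of 6.7e-05 to 0.0013. Ndufs1 stood at 180.1, 187 and 197 FPKM in the isoproterenol libraries, 182, 193 and 188 FPKM with amiodarone, 198, 187 and 197 FPKM with metoprolol, 192, 186 and 189 FPKM with propranolol, 188, 201 and 178 FPKM with lidocaine and 189, 194 and 186 FPKM with ivabradine, against 153, 143 and 135 FPKM in the control libraries. Again no drug library reached down to the controls, and the log2 fold changes ran from 0.38 to 0.43 (standard error 0.05, limma adjusted p 4.7e-05 to 0.0002). Atp5a1 stood at 1876, 2008 and 2049 FPKM in the isoproterenol libraries, 1818, 1788 and 1851 FPKM with amiodarone, 1841, 1831 and 1755 FPKM with metoprolol, 1832, 1803 and 1837 FPKM with propranolol, 1769, 1949 and 1794 FPKM with lidocaine and 1841, 1771 and 1811 FPKM with ivabradine, against 1639, 1446 and 1456 FPKM in the control libraries. Isoproterenol 2 and isoproterenol 3 were the highest libraries and no drug library was as low as a control, at a log2 fold change of 0.39 ± 0.06 (SE), with isoproterenol, and the 5 anti-arrhythmic groups stood close together at 0.26 to 0.28. All 18 of these calls were kept when any 1 library of the compared groups was left out (here and below, libraries of the other groups were not left out in turn). Without the 4 libraries with other tissues' transcripts they were kept for Sdha and Ndufs1 with each drug, while Atp5a1 had an adjusted p of 0.051 with amiodarone and 0.0543 with propranolol.

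Atp5b, Sdhd and Uqcrc2 had higher group means with all 6 drugs too, but passed the test in fewer. Atp5b ran from 2864 to 3433 FPKM in the 18 drug libraries (median 3096), against 2854, 2575 and 2636 FPKM in the control libraries. No drug library was as low as the highest control, and Atp5b passed with every drug but propranolol (log2 fold change 0.15, limma adjusted p 0.067). Its fold change was 0.32 with isoproterenol and 0.18 to 0.21 with the 4 others. Of these 5 calls only that with isoproterenol was kept whichever library was left out, and it was also the only one kept without the 4 libraries with other tissues' transcripts (adjusted p 0.027, against 0.060 to 0.13 with the 4 other drugs). With amiodarone Atp5b no longer passed without control 2, control 3, amiodarone 1 or amiodarone 3 (adjusted p up to 0.094), with metoprolol without control 2, control 3, metoprolol 1 or metoprolol 2 (adjusted p up to 0.1), with lidocaine without control 2 or lidocaine 2 (adjusted p up to 0.059) and with ivabradine without control 2, control 3, ivabradine 1 or ivabradine 3 (adjusted p up to 0.13). Sdhd ran from 319 to 373 FPKM in the 18 drug libraries (median 351), against 318, 302 and 298 FPKM in the control libraries. The 2 ranges touched without overlapping. Sdhd passed with all drugs but metoprolol (0.14, limma adjusted p 0.0503), and its calls with propranolol and ivabradine, at log2 fold changes of 0.23 and 0.21, were kept whichever single library was left out. All 5 calls of Sdhd were lost without the 4 libraries (adjusted p 0.0505 to 0.20). The call with isoproterenol was lost without control 3, isoproterenol 2 or isoproterenol 3 (adjusted p up to 0.072), that with amiodarone without control 2, control 3, amiodarone 1 or amiodarone 3 (adjusted p up to 0.065) and that with lidocaine without control 2, control 3, lidocaine 1 or lidocaine 2 (adjusted p up to 0.069). Uqcrc2 ran from 389 to 448 FPKM in the 18 drug libraries (median 408), against 393, 373 and 354 FPKM in the control libraries. Amiodarone 1 was the one drug library below control 1. Uqcrc2 passed with isoproterenol (0.22 ± 0.05, SE) and with propranolol (0.14, a call lost without control 2, control 3, propranolol 1, propranolol 2 or propranolol 3 at adjusted p up to 0.2). Both calls of Uqcrc2 were lost without the 4 libraries (adjusted p 0.099 with isoproterenol and 0.23 with propranolol). After rescaling all 6 of Sdha, Ndufs1, Atp5a1, Atp5b, Sdhd and Uqcrc2 were called higher with each of the 6 drugs. The other complex II subunits did not share this direction, since Sdhb and Sdhc had log2 differences from control of -0.16 to 0.09 and -0.16 to -0.07 as deposited. They passed with no drug as deposited or after rescaling. After the length and GC correction described below, Sdhc was lower with 4 drugs and Sdhb higher with 1. With rescaling added to that correction 0 complex II subunits were lower with any drug.

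**Figure D2:**
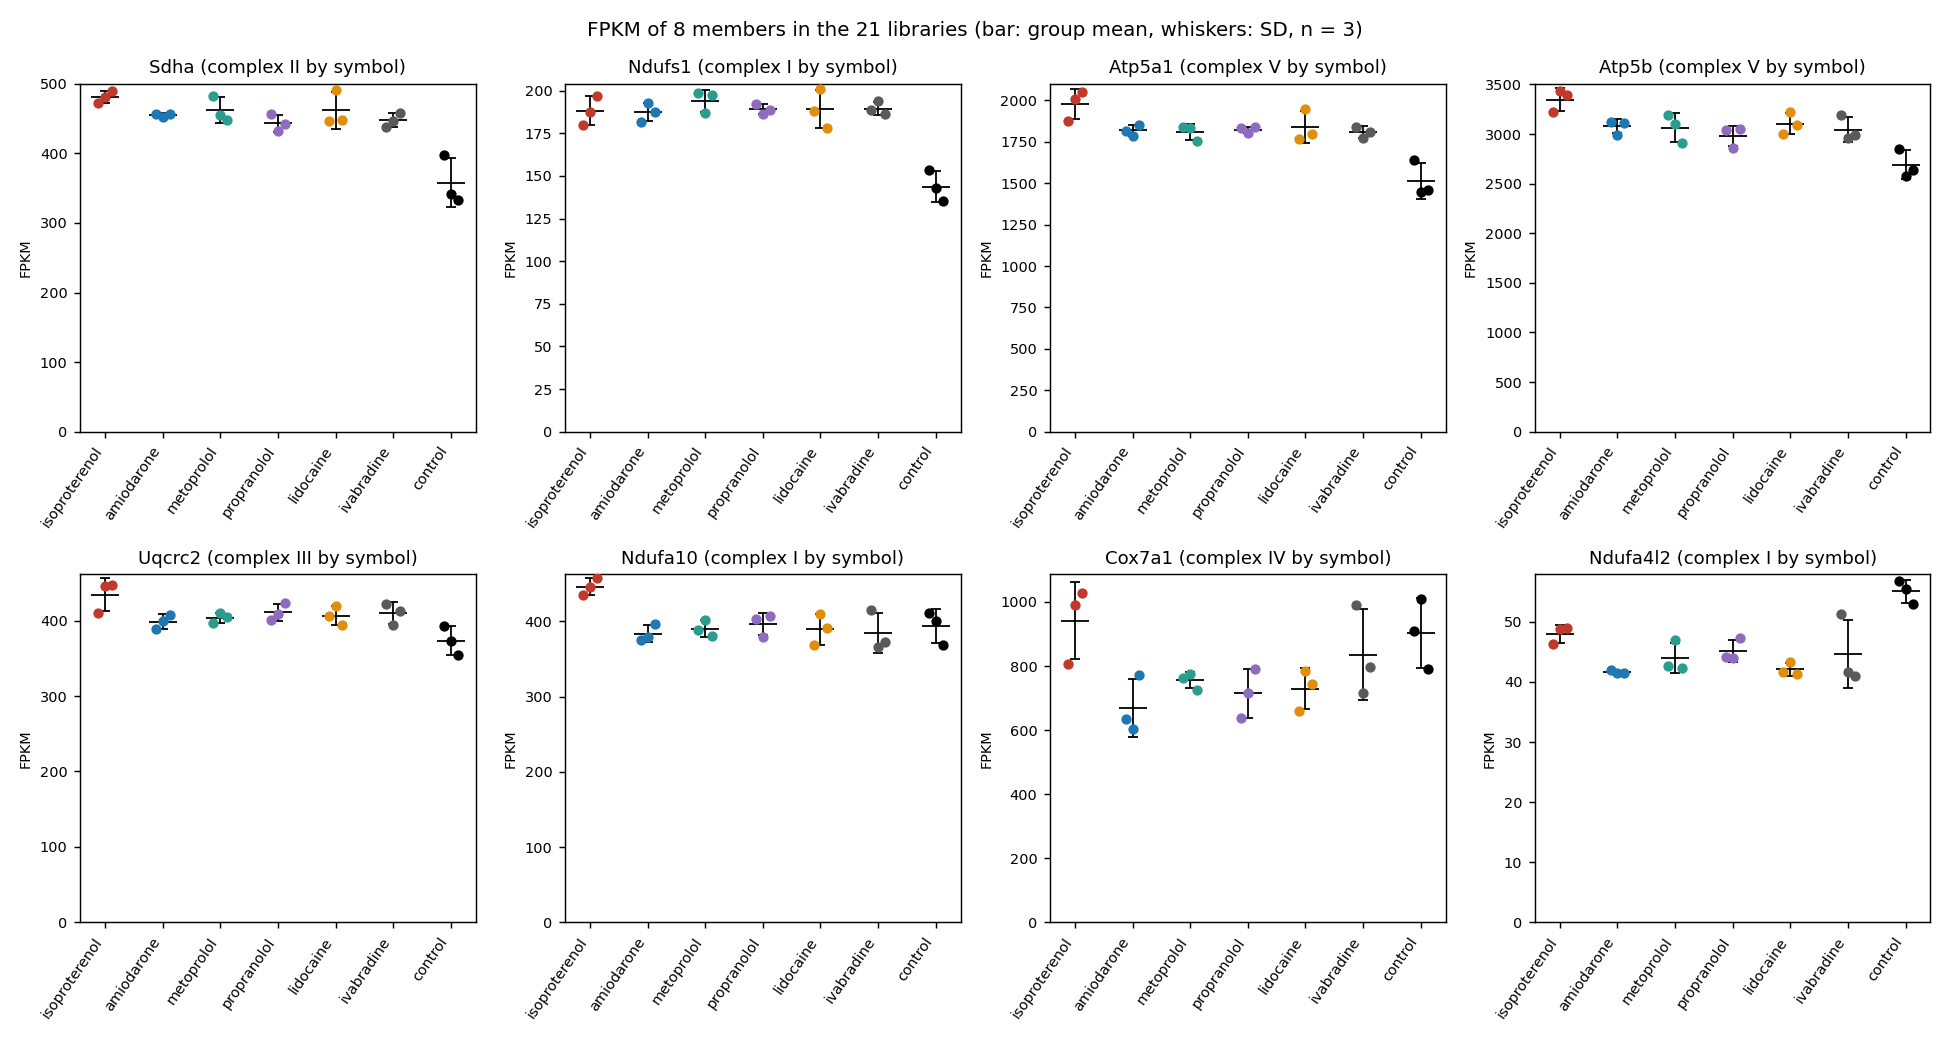
FPKM of 8 members in the 21 libraries, with the group mean as a bar and the SD as whiskers (n = 3). Sdha, Ndufs1, Atp5a1 and Atp5b lie higher in all 18 drug libraries than in the 3 controls, Uqcrc2 is lower in amiodarone 1 than in control 1, Ndufa10 lies highest in the isoproterenol libraries, Cox7a1 overlaps between groups, and Ndufa4l2 lies lower in every drug library than in the controls.

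The 5 anti-arrhythmic drugs shared the control libraries, so their comparisons are not independent of each other. With amiodarone 5 members were higher and 31 lower (43.4% of the members, beside 29% of all genes, 8.47% higher and 20.6% lower). With lidocaine 5 were higher and 29 lower (41.0%, beside 37.1% of all genes, 10.6% higher and 26.6% lower). With metoprolol 4 were higher and 19 lower (27.7%, beside 31.4% of all genes, 9.48% higher and 22% lower). The counts were smaller with propranolol, at 5 higher and 8 lower (15.7%, beside 26.8% of all genes, 6.98% higher and 19.8% lower), and with ivabradine, at 5 higher and 4 lower (10.8%, beside 27% of all genes, 7.91% higher and 19.1% lower). The median member differed from control by -0.20 log2 with amiodarone, -0.18 with metoprolol, -0.11 with propranolol, -0.19 with lidocaine and -0.07 with ivabradine, where the median of all genes was -0.08 to -0.10. Taken over both directions together, only the shares with amiodarone and lidocaine were above those of all genes. On the rescaled values 6 members were higher with each of these 5 drugs and 2, 2, 1, 2 and 2 lower with amiodarone, metoprolol, propranolol, lidocaine and ivabradine in that order, beside 9.02 to 13.9% of all genes lower and 13.4 to 18% higher.

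These counts moved when single libraries were left out. The shares of all genes in these fits are not given here, and fewer libraries lower the power for every gene. The 36 calls with amiodarone became 9 without control 2, 13 without amiodarone 1 and 7 without amiodarone 2. The 23 with metoprolol became 9 without control 2, 9 without metoprolol 1 and 10 without metoprolol 3, and the 13 with propranolol became 6 without control 2 and 6 without propranolol 1. The 34 with lidocaine became 21 without control 1, 4 without control 2, 9 without lidocaine 1 and 14 without lidocaine 3. In the ivabradine comparison the 9 calls became instead 34 (4 higher and 30 lower) without ivabradine 1, the library with the highest level of 4 complexes. Without the 4 libraries with transcripts of other tissues 2 members were higher and 1 lower with amiodarone, 3 and 16 with metoprolol, 2 and 2 with propranolol, 3 and 26 with lidocaine and 3 and 5 with ivabradine. This step took 1 library each from the control, isoproterenol, amiodarone and propranolol groups and none from the metoprolol, lidocaine and ivabradine groups. The counts of the drugs without the 4 libraries thus rest on unlike group sizes.

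As deposited, the lower members were chiefly small subunits. The counts by kind of subunit given here are from fits of all 21 libraries, and how they move without single libraries is not given. Of the 29 accessory subunits of complex I, which surround its catalytic core, 16 were lower with amiodarone, 13 with lidocaine, 9 with metoprolol, 4 with propranolol and 1 with ivabradine, and none was higher with any of these 5 drugs. Of all genes 20.6, 26.6, 22, 19.8 and 19.1% were lower in the same comparisons, and the counts with propranolol and ivabradine were below those shares. After rescaling 1 accessory subunit was lower with metoprolol and 0 with the 4 other drugs, beside 9.02 to 13.9% of all genes. After the length and GC correction alone 7 were lower with amiodarone, 1 with lidocaine, 0 with metoprolol, 1 with propranolol and 0 with ivabradine, beside 19.7 to 26.2% of all genes. Of the 7 core subunits 1, Ndufs7 with amiodarone, was lower. Of the 10 ubiquitous subunits of complex IV 5 were lower with amiodarone, 5 with lidocaine, 2 with metoprolol, 1 with propranolol and 0 with ivabradine. The 5 small subunits of complex III gave 2, 3, 2, 1 and 0 lower calls with the same drugs. Of the 10 subunits of the membrane part and stalk of complex V 3 were lower with amiodarone, 3 with lidocaine and 2 with metoprolol. Ndufa4l2 stood at 46.2, 48.8 and 48.99 FPKM in the isoproterenol libraries, 41.9, 41.5 and 41.5 FPKM with amiodarone, 42.7, 46.9 and 42.3 FPKM with metoprolol, 44.2, 44.04 and 47.2 FPKM with propranolol, 41.6, 43.4 and 41.4 FPKM with lidocaine and 51.2, 41.7 and 41 FPKM with ivabradine, against 56.8, 55.4 and 53.01 FPKM in the control libraries. Ndufa4l2, a relative of Ndufa4 that hypoxia is known to induce, was the only member lower with all 6 drugs, and each drug library lay below each control. Its log2 fold changes were -0.39 with amiodarone, -0.38 with lidocaine, -0.32 with metoprolol, -0.30 with ivabradine, -0.28 with propranolol and -0.19 with isoproterenol (limma adjusted p 0.0004 to 0.029). The calls with the 5 anti-arrhythmic drugs were kept whichever library was left out, and that with isoproterenol was lost without control 1, control 2, isoproterenol 1 or isoproterenol 3 (adjusted p up to 0.087). The call with isoproterenol was lost without the 4 libraries as well (adjusted p 0.084), and after rescaling those with isoproterenol (0.38) and propranolol (0.070).

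Cox8a, a small subunit of complex IV, ran from 537 to 692 FPKM in the 18 drug libraries (median 576), against 634, 761 and 711 FPKM in the control libraries. Of the drug libraries only ivabradine 1 reached the control range. Cox8a was lower with isoproterenol, amiodarone, metoprolol, propranolol and lidocaine at log2 fold changes of -0.33 to -0.24, and its calls with amiodarone and metoprolol were kept whichever library was left out. With lidocaine its call was lost without control 2 (adjusted p up to 0.055), with propranolol without control 2, control 3, propranolol 1 or propranolol 3 (adjusted p up to 0.16) and with isoproterenol without control 2, control 3, isoproterenol 1 or isoproterenol 3 (adjusted p up to 0.12). Without the 4 libraries Cox8a was lower with metoprolol and lidocaine alone, and not with amiodarone (adjusted p 0.065), and after rescaling with amiodarone alone (adjusted p 0.037). Ndufa7, an accessory subunit of complex I, ran from 294 to 393 FPKM in the 18 drug libraries (median 342), against 409, 424 and 397 FPKM in the control libraries. No drug library reached the lowest control. Ndufa7 was lower with the 5 anti-arrhythmic drugs at -0.31 to -0.23, and the call with metoprolol was kept in every such fit. The others were lost with amiodarone without amiodarone 2 (adjusted p up to 0.058), with lidocaine without control 2 or lidocaine 1 (adjusted p up to 0.06), with propranolol without control 2, propranolol 1 or propranolol 2 (adjusted p up to 0.084) and with ivabradine without control 1, control 2, control 3, ivabradine 2 or ivabradine 3 (adjusted p up to 0.19). Ndufa7 was lower with metoprolol and lidocaine alone without the 4 libraries. Uqcrq, a small subunit of complex III near the quinone sites, ran from 317 to 475 FPKM in the 18 drug libraries (median 366), against 448, 475 and 409 FPKM in the control libraries. Isoproterenol 2, isoproterenol 3 and ivabradine 1 lay within the control range. Uqcrq was lower with amiodarone (-0.36), metoprolol (-0.33), propranolol (-0.29) and lidocaine (-0.28). The call with amiodarone was lost without control 2 or amiodarone 2 (adjusted p up to 0.069), that with metoprolol without control 2, metoprolol 1 or metoprolol 3 (adjusted p up to 0.085), that with propranolol without control 1, control 2, propranolol 1 or propranolol 2 (adjusted p up to 0.15) and that with lidocaine without control 1, control 2, lidocaine 1, lidocaine 2 or lidocaine 3 (adjusted p up to 0.14). Uqcrq too was lower with metoprolol and lidocaine alone without the 4 libraries, and after rescaling neither Ndufa7 nor Uqcrq passed with any drug.

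Cox6b2, among the least abundant members, had the largest fold changes. Cox6b2 stood at 9.83, 8.26 and 8.37 FPKM in the isoproterenol libraries, 10.4, 10.2 and 8.18 FPKM with amiodarone, 9.56, 10.4 and 10.3 FPKM with metoprolol, 6.68, 5.82 and 6.88 FPKM with propranolol, 9.16, 6.06 and 9.54 FPKM with lidocaine and 10.7, 5.46 and 6.65 FPKM with ivabradine, against 11.2, 15.7 and 12 FPKM in the control libraries. All 18 drug libraries lay below the lowest control library, with the 3 propranolol libraries, lidocaine 2, ivabradine 2 and ivabradine 3 lowest, while the fold changes with amiodarone (-0.40) and metoprolol (-0.32) did not pass. Its log2 fold changes were -0.90 ± 0.18 (SE) with propranolol and -0.73 ± 0.18 with ivabradine, with limma adjusted p-values of 0.0018 and 0.0058 that stayed under 0.05 whichever library was left out. With lidocaine the fold change was -0.61 and the call was lost without control 2 or lidocaine 2 (adjusted p up to 0.087). With isoproterenol it was -0.50 and was lost without control 2, control 3, isoproterenol 2 or isoproterenol 3 (adjusted p up to 0.17), without the 4 libraries (0.16) and after rescaling (0.094). On the log2(FPKM + 1) scale a change at this level is understated.

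**Figure D3:**
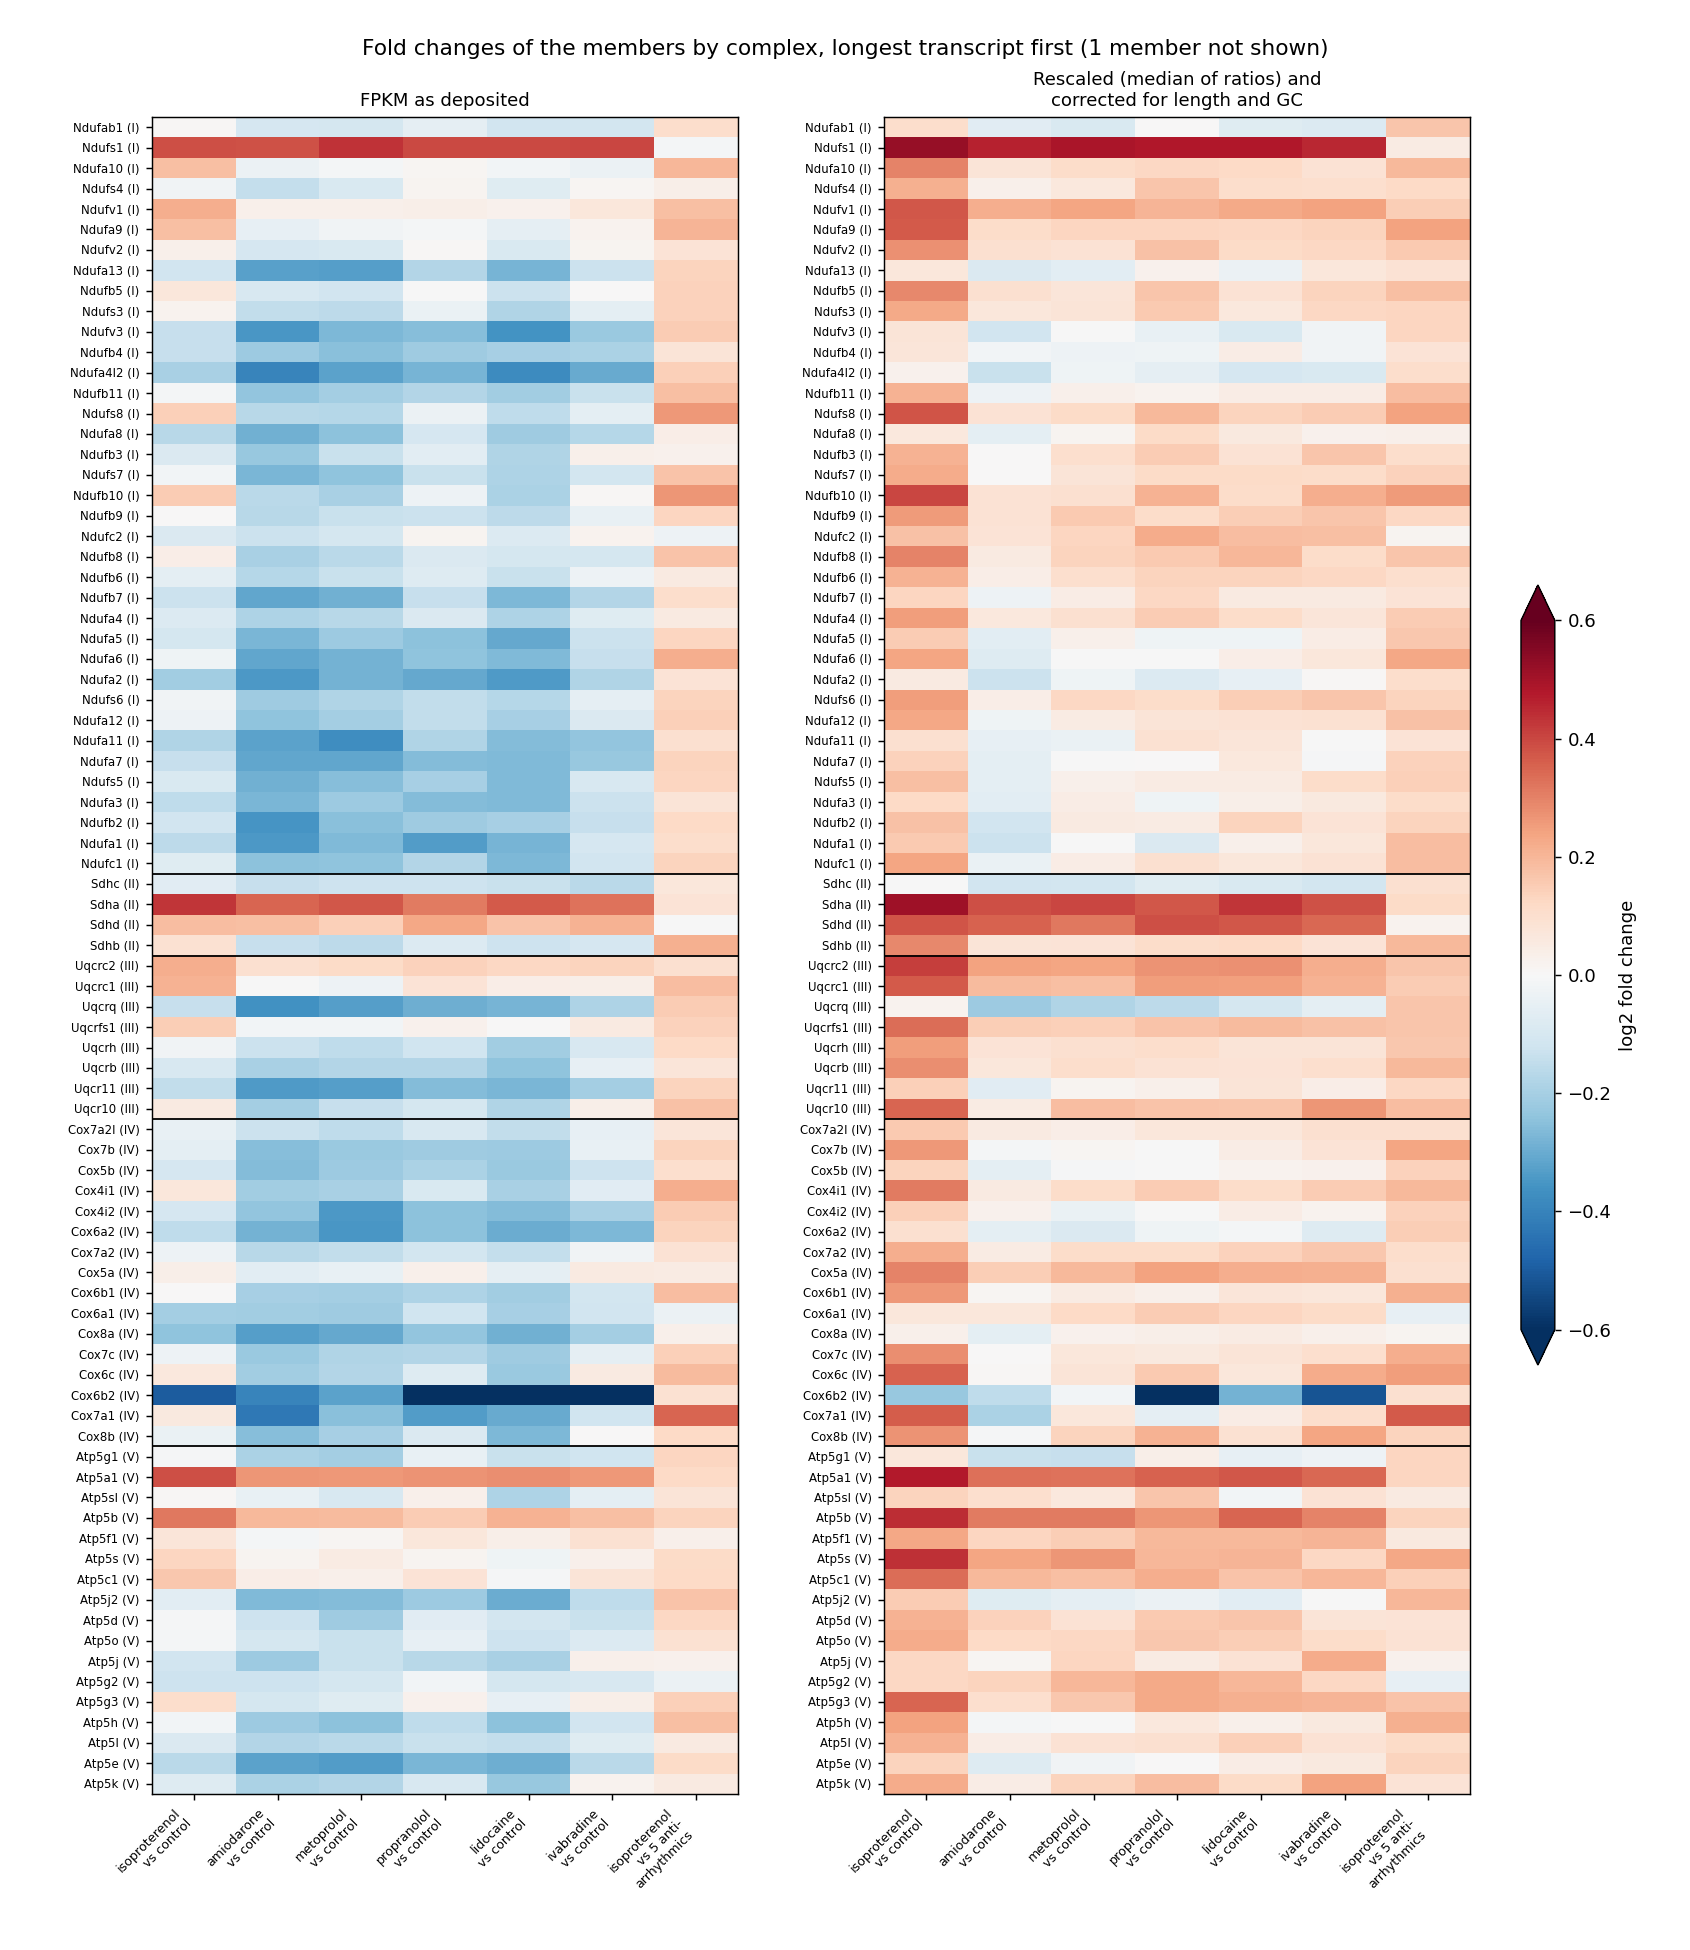
Log2 fold changes of the members, 1 of which is not shown, in the 6 comparisons with control and in isoproterenol against the mean of the 5 anti-arrhythmic groups, as deposited (left) and after rescaling with a correction for transcript length and GC content (right), members ordered within each complex from the longest transcript to the shortest. Ndufs1, Sdha, Atp5a1 and Atp5b are red against control in both panels, most short members are blue for the 5 anti-arrhythmic drugs at the left, and few are blue at the right.

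The direction of a member against control moved with the length of its transcript. The members are short, with a median length of 755 bases where the median of the tested genes is 2879, and the 3 subunits higher with every drug are among the longest, Sdha at 2900.0 bases, Ndufs1 at 2661 and Atp5a1 at 2471. Across the 83 members Pearson's r between log length and log2 fold change against control was 0.59 with isoproterenol, 0.68 with amiodarone, 0.64 with metoprolol, 0.60 with propranolol, 0.66 with lidocaine and 0.44 with ivabradine, a description across genes that share libraries. Across all genes tested with a known length it was 0.22 to 0.38, and across 654 other genes of at least 100 FPKM 0.38 to 0.59. With amiodarone the 26 members of up to 600 bases had a median of -0.28, those of 600 to 1000 bases -0.21, of 1000 to 1500 bases -0.10 and the 16 longer ones -0.01. The other abundant genes had medians of -0.28, -0.23, -0.16 and 0.02 in the same length classes. With isoproterenol the members had medians of -0.09, -0.04, 0.07 and 0.18, where the other abundant genes had -0.25, -0.23, -0.15 and 0.02. With isoproterenol the median of the members was thus above that of the other abundant genes in each of the 4 length classes, a difference that was not tested.

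A correction for length and GC content, fitted in each library over all genes, changed the counts. It left 44 members higher and 0 lower with isoproterenol (beside 8.78% and 28.9% of all genes), 7 and 14 with amiodarone (beside 7.35% and 19.7%), 10 and 3 with metoprolol (beside 7.38% and 20.4%), 11 and 4 with propranolol (beside 7.16% and 22.3%), 12 and 4 with lidocaine (beside 9.33% and 26.2%) and 15 and 4 with ivabradine (beside 7.95% and 20.8%). Rescaling and this correction together gave 57 higher and 0 lower with isoproterenol (beside 17.1% and 14.3% of all genes), 12 and 0 with amiodarone (beside 13% and 9.63%), 16 and 0 with metoprolol (beside 13.4% and 9.95%), 26 and 1 with propranolol (beside 15% and 11.7%), 22 and 0 with lidocaine (beside 17.3% and 14.6%) and 28 and 1 with ivabradine (beside 15% and 11.5%). The 3 subunits of the first group kept their direction, with fold changes of 0.37 to 0.51 for Sdha, 0.45 to 0.52 for Ndufs1 and 0.33 to 0.48 for Atp5a1 under both steps. Cox6b2 kept its call with propranolol (-0.64) and ivabradine (-0.52). Ndufa4l2 did not pass with any drug under both steps, at -0.13 to 0.03, and Cox8a stood between -0.06 and 0.05. For most small subunits the deposited values alone thus give no direction that holds on every scale tried. The part that RNA quality or library making has in the length trend was not tested.

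**Figure D4:**
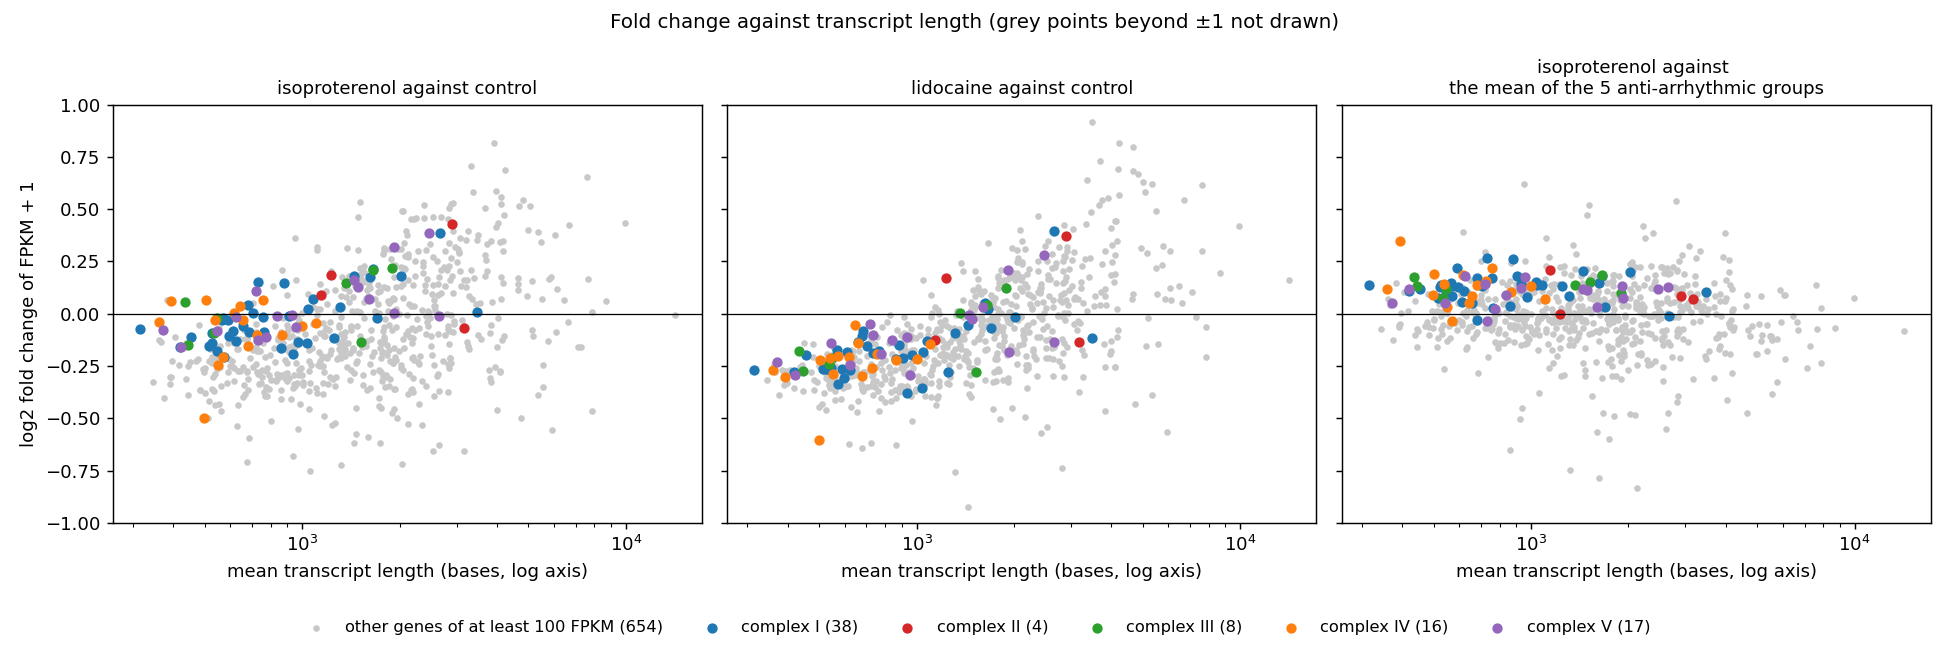
Log2 fold change of log2(FPKM + 1) against mean transcript length (log axis) for the 83 members, coloured by complex, and for 654 other genes of at least 100 FPKM in grey, for isoproterenol and lidocaine against control and for isoproterenol against the mean of the 5 anti-arrhythmic groups. Fold changes against control climb with length in members and other genes alike, while in the right panel the members lie mostly above 0 at every length (Pearson's r of -0.08 with length).

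Set against the other drugs rather than the controls, the isoproterenol group had small positive fold changes for most members, few of which passed the test. In the comparison with the mean of the 5 anti-arrhythmic groups 78 of the 83 members had a positive log2 fold change, with a median of 0.12 where all genes had -0.01, and 15 were higher and 0 lower (18.1%, beside 22.8% of all genes, 9.51% higher and 13.3% lower). The 15 were 7 members of complex I, 1 of complex II, 1 of complex III, 4 of complex IV and 2 of complex V. After rescaling the counts were 15 and 0 as well, and after the length and GC correction, with or without rescaling, 45 and 0, beside 9.66 to 12% of all genes higher. Ndufa10, an accessory subunit of complex I, was at 435, 446 and 457 FPKM in the isoproterenol libraries, against 366 to 415 FPKM in the 15 anti-arrhythmic libraries (median 389). The 3 isoproterenol libraries lay above all 15 others, at a log2 fold change of 0.20 ± 0.04 (SE, limma adjusted p 0.0037), and the call was kept whichever library was left out and without the 4 libraries with other tissues' transcripts. For 81 of the 83 members the ranges of the groups overlapped. The share of all genes with such an overlap is not given here, so this count is a description only.

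Cox7a1, the heart and muscle form of a small complex IV subunit, had the largest fold change in this comparison. It was at 805, 991 and 1029.6 FPKM in the isoproterenol libraries, against 603 to 992 FPKM in the 15 anti-arrhythmic libraries (median 745), and against 909.9, 1009 and 789.7 FPKM in the control libraries. Isoproterenol 2 and 3 were high, isoproterenol 1 lay within the range of the other drugs, and ivabradine 1 was as high as isoproterenol 2. The log2 fold change was 0.35 ± 0.10 (SE, limma adjusted p 0.016), and the call was lost without isoproterenol 2 or isoproterenol 3 (adjusted p up to 0.12), and without the 4 libraries (adjusted p 0.16). Cox4i1, the general form of the large regulatory complex IV subunit, was at 2672, 2736 and 2699 FPKM in the isoproterenol libraries, against 2059 to 2801 FPKM in the 15 anti-arrhythmic libraries (median 2287). Its fold change was 0.22, and those of Cox6b1 and Cox6c, other complex IV subunits, were 0.19 and 0.19. All 3 calls were lost without any 1 of the isoproterenol libraries (adjusted p up to 0.12), and without the 4 libraries (adjusted p 0.095 to 0.15). Sdhb, the iron-sulphur subunit of complex II, was at 586, 651 and 637 FPKM in the isoproterenol libraries, against 497 to 599 FPKM in the 15 anti-arrhythmic libraries (median 539). It overlapped between groups at a fold change of 0.21 and its call was lost without isoproterenol 2 (adjusted p up to 0.055) and without the 4 libraries (0.077). Atp5b passed at 0.13 (adjusted p 0.047), a call kept without metoprolol 1, lidocaine 2, ivabradine 1 or ivabradine 2 but lost without any other 1 of the 18 libraries (adjusted p up to 0.18) and without the 4 (0.22). The 7 other members, Ndufb10, Ndufs8, Ndufa9, Ndufv1, Ndufa6, Uqcrc1 and Atp5h, had fold changes of 0.18 to 0.27.

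The count of this comparison moved without single libraries as well, in fits whose shares of all genes are not given here. It was 4 without isoproterenol 2, 5 without isoproterenol 3, 36 without ivabradine 1 and 2 without the 4 libraries that held transcripts of other tissues, of which isoproterenol 3 was the one with the atrial gene Myl7. Isoproterenol libraries also differed in markers of other cell types. The sum of 7 macrophage genes was 87 to 193 FPKM in isoproterenol libraries, against 238 to 622 FPKM in control libraries, with none of the 7 at 0, and 5 of the 7 were lower with isoproterenol than with the anti-arrhythmic drugs. This macrophage sum overlapped that of isoproterenol with amiodarone (189 to 273 FPKM), metoprolol (146 to 426), propranolol (168 to 229) and lidocaine (132 to 316). With ivabradine it was 228 to 267 FPKM, without overlap. The sum of 4 neutrophil genes was 6.28 to 8.90 FPKM with isoproterenol, against 19.3 to 129 FPKM in controls. In the anti-arrhythmic libraries the neutrophil sum ran from 11.91 FPKM with propranolol to 65.65 FPKM with amiodarone. The sum of 7 fast skeletal muscle genes, without Ckm and Acta1, which heart muscle expresses too, was 6.9 to 9.06 FPKM with isoproterenol, against 22.6 to 160.1 FPKM in controls, and all 5 of them that were tested were lower with isoproterenol than in controls. This sum was as low with lidocaine (4.69 to 9.31 FPKM) and ivabradine (5.62 to 10.41 FPKM). It ran from 5.49 to 81.32 FPKM with amiodarone, 7.6 to 21.57 with metoprolol and 6.17 to 28.45 with propranolol. The skeletal muscle sum thus did not set isoproterenol apart from the other drugs. All 3 isoproterenol libraries were low in Y-linked transcripts, as were 1 control, 2 metoprolol, 2 lidocaine and 1 ivabradine library. The part of these differences in the members' values was not tested, beyond a fit with the Y-linked level as a covariate.

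Across all 7 groups 22 members differed by the F test (26.5%, beside 39.9% of all genes), 10 of complex I, 3 of complex II, 0 of complex III, 6 of complex IV and 3 of complex V. This count was 8 without control 2, 13 without isoproterenol 2, 12 without isoproterenol 3, 14 without amiodarone 1, amiodarone 2 or metoprolol 3, and 42 without ivabradine 1 or ivabradine 2. For these smaller fits the shares of all genes are not given here. Among the 5 anti-arrhythmic groups alone 0 members differed by limma's F test (beside 1.06% of all genes), and 6 had an unadjusted p under 0.05. The smallest adjusted p was 0.216, for Cox6c, which passed at 0.0469 after the length and GC correction. The group means of a member spanned a median of 0.25 log2, from 0.10 to 0.91. As deposited, the control group had the highest mean of 45 members and the isoproterenol group of 27, and amiodarone had the lowest of 36, lidocaine of 19 and metoprolol of 17. The isoproterenol mean was above that of amiodarone in 81 members, metoprolol in 80, lidocaine in 79, propranolol in 73 and ivabradine in 58, and above control in 32. These ranks move with the scale of the libraries, and the same counts over all genes are not given here. The mean level of all members with isoproterenol differed from control by -0.01 as deposited and by 0.096 after rescaling. Within the 5 anti-arrhythmic groups ivabradine had the highest mean of 56 members and amiodarone the lowest of 40, but the rank of ivabradine rested on ivabradine 1: without it the ivabradine mean was the highest of 9 members and the lowest of 23, and the propranolol mean the highest of 60.

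The members of 7 pairs of isoforms were compared as log2 ratios within each library, in which a scale factor of the library nearly cancels. The heart and muscle forms dominated in the pairs that have one. The ratio of Cox6a2 to Cox6a1 was 1.84, 1.88 and 1.82 in isoproterenol libraries, and ran from 1.499 to 1.86 in the 15 anti-arrhythmic libraries, against 1.89, 1.80 and 1.69 in controls. The isoproterenol values lay within the control range and overlapped the anti-arrhythmic range. Cox7a1 to Cox7a2 stood at 0.84, 0.98 and 1.13 with isoproterenol and 0.52 to 0.86 with the anti-arrhythmic drugs, against 0.98, 0.98 and 0.72 in controls. The difference of isoproterenol from the 15 anti-arrhythmic libraries was 0.26 (two-sided exact permutation p = 0.0049, adjusted over 56 tests 0.14). Cox8b to Cox8a ran from 0.71 to 1.16 in the 18 drug libraries, against 0.95, 0.76 and 0.82 in controls. Cox8b is the form of rodent heart and muscle, and the drug and control libraries overlapped.

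The other pairs join an abundant form to a scarce one, except Atp5g1 and Atp5g3, which are both abundant (medians of 1588 and 2295 FPKM in the 18 drug libraries). Ndufa4l2 to Ndufa4 ran from -5.10 to -4.84 in the 18 drug libraries, against -4.79, -4.80 and -4.70 in controls. The ranges did not overlap, and the difference of -0.18 had the smallest p of all pairs (two-sided exact permutation p = 0.0015, adjusted 0.084). Cox6b2 to Cox6b1 averaged -7.54 ± 0.29 in drug libraries and -7.12 ± 0.17 in controls (SD), and Atp5g1 to Atp5g3, 2 genes of the same c-ring protein, -0.52 ± 0.06 in drug libraries and -0.41 ± 0.07 in controls. Both had an exact permutation p of 0.017 (adjusted 0.15). Cox4i2, the lung and hypoxia form, stood at -6.84 ± 0.10 to Cox4i1 in drug libraries and -6.73 ± 0.08 in controls. No pair passed after adjustment, and 3 libraries against 3 cannot give an exact two-sided p below 0.10. The counting tool is not given in the sources used here, so reads shared with near-identical genes or pseudogenes, such as those of the Atp5g family, may be divided between them.

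**Figure D5:**
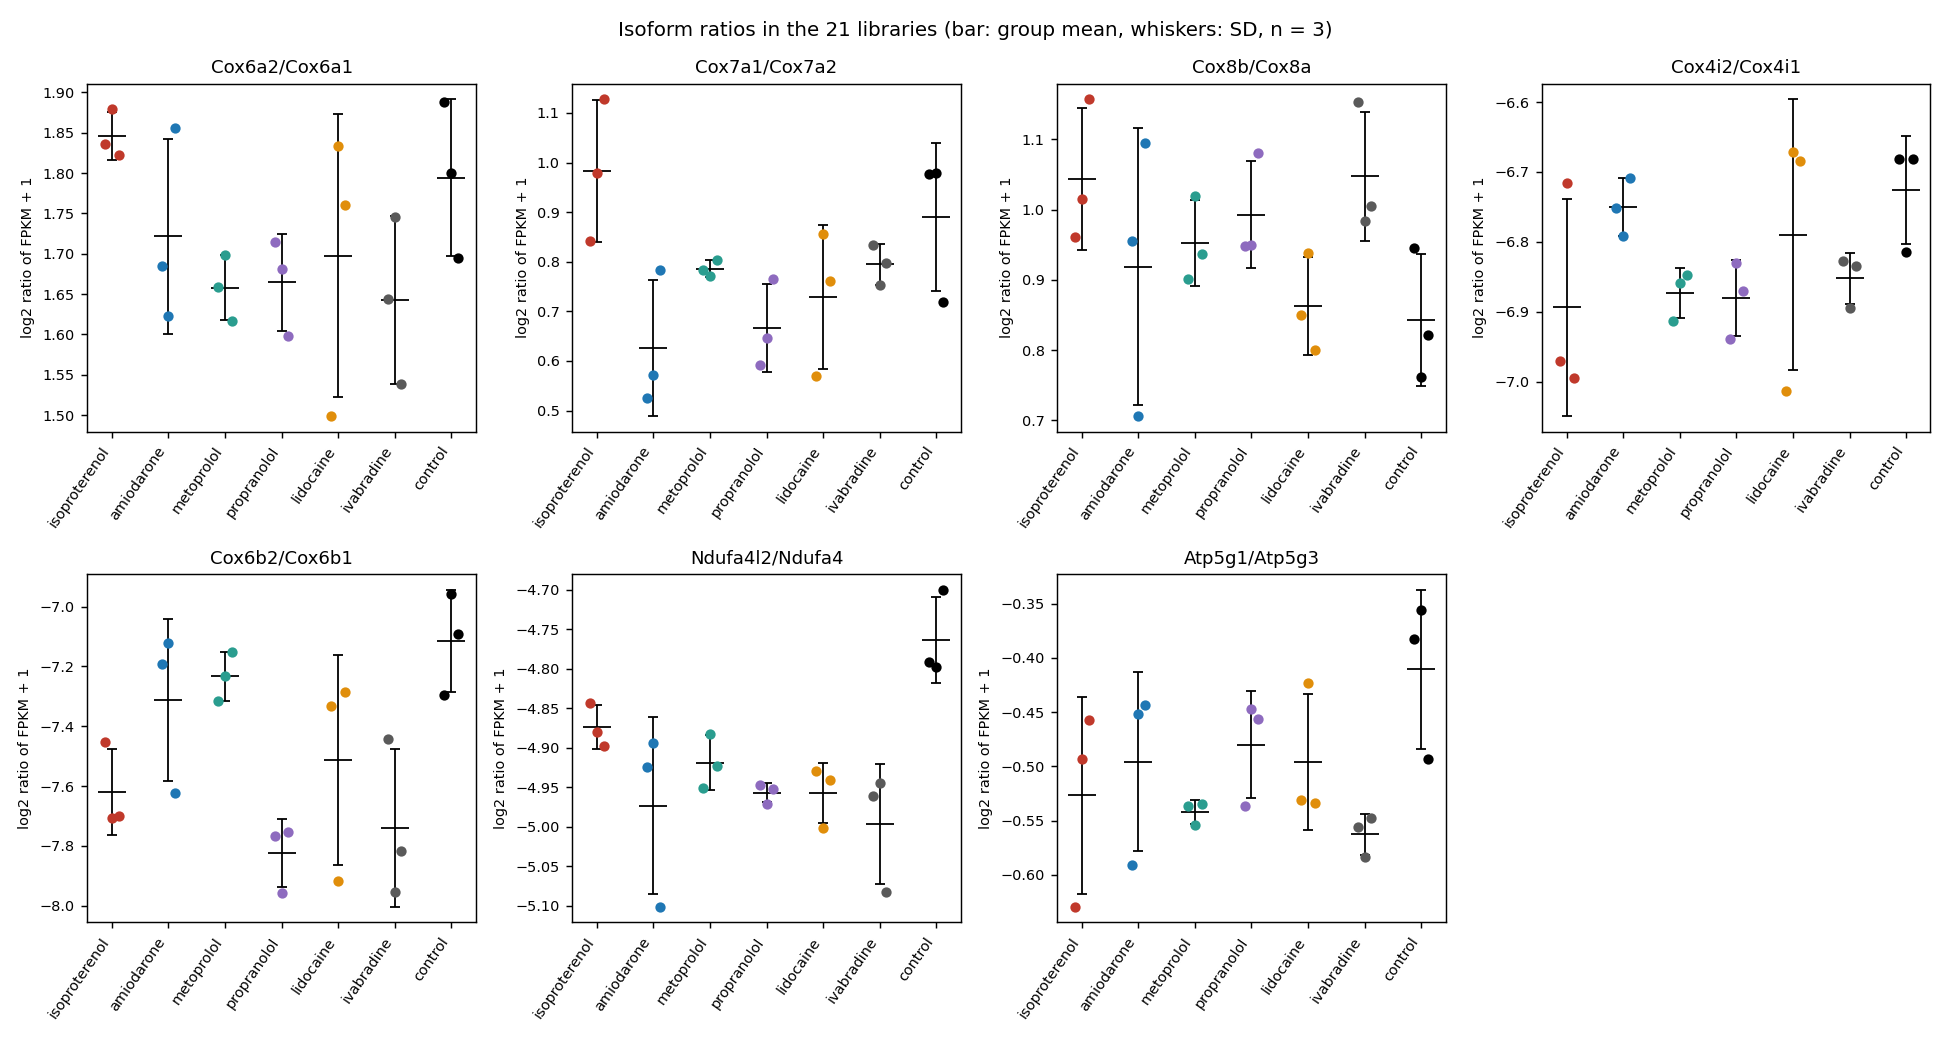
Log2 ratio of FPKM + 1 for 7 isoform pairs in the 21 libraries, with the group mean as a bar and the SD as whiskers (n = 3), each panel on its own axis. Ndufa4l2 to Ndufa4 is lower in all 18 drug libraries than in the controls, and the other pairs overlap between drug and control libraries.

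Genes around the complexes were read from lists of pathway members, in fits of all 21 libraries. How these calls, here and in the next paragraphs, move without single libraries or without the 4 libraries is not given here. The TCA cycle with pyruvate dehydrogenase, which supplies NADH and succinate to complexes I and II, was called in 1 direction as deposited. Of 17 genes 12 were higher with isoproterenol, 8 with amiodarone, 9 with metoprolol, 8 with propranolol, 10 with lidocaine and 10 with ivabradine. None was lower with any drug, beside 6.98 to 10.6% of all genes higher and 19.1 to 26.6% lower. How many of the 17 stayed higher after the length and GC correction is not given here. The list's median fold change was 0.16 to 0.25 over the 6 drugs, where the median of all genes was -0.08 to -0.10. Ogdh, a subunit of 2-oxoglutarate dehydrogenase, averaged 504 FPKM with isoproterenol and 444 FPKM with ivabradine, against 343 FPKM in controls. Its log2 fold changes were 0.37 to 0.56 over the 6 drugs. Citrate synthase (Cs) was higher with each drug too, at 0.20 to 0.40, as were Pdha1, Dlat, Dld and Dlst. Coenzyme Q synthesis, of 12 genes, gave 6 higher and 1 lower with isoproterenol, 2 and 1 with amiodarone, 3 and 1 with metoprolol, 2 and 0 with propranolol, 4 and 0 with lidocaine and 3 and 0 with ivabradine. Coq10b, a coenzyme Q binding protein, was higher with every drug but propranolol, by up to 1.12 with lidocaine.

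Among complex IV assembly and import genes more were lower than higher in 5 of the 6 comparisons as deposited, an imbalance that all genes showed as well (6.98 to 10.6% higher and 19.1 to 26.6% lower). Of 21 complex IV assembly genes 3 were higher and 7 lower with isoproterenol, 2 and 5 with amiodarone, 3 and 6 with metoprolol, 3 and 2 with propranolol, 3 and 10 with lidocaine and 3 and 5 with ivabradine. Taco1, the activator of Cox1 translation in mitochondria, averaged 26.8 FPKM with isoproterenol and 28.4 FPKM with lidocaine, against 14.97 FPKM in controls, and was higher with all 6 drugs at 0.69 to 0.87 log2. Coa4 fell with the 5 anti-arrhythmic drugs, at -0.71 to -0.57, and did not pass with isoproterenol (-0.28). The difference of isoproterenol from the anti-arrhythmic mean was 0.37 ± 0.08 (SE) for Coa4 (limma adjusted p 0.0037). Of 13 complex I assembly genes 3 were higher and 4 lower with isoproterenol, 1 and 1 with amiodarone, 0 and 1 with metoprolol, 1 and 0 with propranolol, 1 and 1 with lidocaine and 2 and 1 with ivabradine. Of 16 genes of protein import 0 were higher and 7 lower with isoproterenol, 1 and 4 with amiodarone, 1 and 6 with metoprolol, 1 and 3 with propranolol, 1 and 7 with lidocaine and 2 and 2 with ivabradine. Assembly genes of complex II (4), of complex III with cytochrome c (8) and of complex V (4) gave at most 2 calls in either direction per drug. The median fold change over the 6 drugs was -0.18 to -0.05 for the complex IV list and -0.20 to -0.04 for the import list. After rescaling with the length and GC correction 0 or 1 gene of each of these 2 lists was lower with any drug.

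Of 14 regulators of mitochondrial biogenesis, beside 26.8 to 37.1% of all genes called in either direction, 1 was higher and 4 were lower with isoproterenol, 3 and 1 with amiodarone, 4 and 3 with metoprolol, 2 and 1 with propranolol, 4 and 2 with lidocaine and 3 and 1 with ivabradine. Perm1, a muscle regulator of respiratory genes, was higher with all 6 drugs at 0.37 to 0.50. Gabpb1, a subunit of the ETS factor whose letters are given above, was lower with all 6 at -0.24 to -0.17. Ppargc1a, the coactivator PGC-1α, averaged 26.7 FPKM with ivabradine, 22.1 with lidocaine and 17.3 with metoprolol, against 10.9 FPKM in controls, and passed with these 3 drugs (1.18 ± 0.16, 0.93 ± 0.16 and 0.62 ± 0.16 log2, SE). Nrf1, Tfam and Esrra passed with no drug. Among 7 genes of ATP export, Ckmt2, the creatine kinase of muscle mitochondria, averaged 811 FPKM with isoproterenol and 586 FPKM with ivabradine, against 588 FPKM in controls, 0.46 log2 above control and 0.47 ± 0.08 (SE) above the anti-arrhythmic mean (limma adjusted p 0.00061). With the length and GC correction and rescaling, no gene of the TCA cycle or coenzyme Q lists was lower with any drug, and of the 16 import genes 1 or none was.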

How the data were processed

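RNA of the heart apex of 21 ICR mouse samples was sequenced on a BGISEQ-500 instrument, and the labels name oligo dT selection or rRNA depletion without saying which was used here. The authors deposited FPKM values per gene in 1 table. HISAT, Bowtie2 2.2.5 and mm9 are named in the submitters' processing notes, and the counter, annotation and filters are not given in the sources used here. All value columns were matched to samples by name. The 12433 genes that reached 1 FPKM in 3 or more libraries were tested on log2 values, log2(FPKM + 1), computed from the deposited FPKM with a pseudocount of 1. FPKM keeps no counts, so no count model was used, and counting error could not be computed. limma 3.58.1 in R 4.3.3 fitted all 21 libraries with a mean-variance trend (14 residual degrees of freedom), since the 7 groups then share 1 estimate of the spread, and p-values were adjusted by Benjamini-Hochberg over all genes tested, with a threshold of 0.05. The fit was tested on simulated data. Isoform ratios were compared by two-sided exact permutation tests. Transcript lengths are means over matching transcripts of GENCODE M21 (98.99% of the tested genes), and promoters come from RefSeq on GRCm38.p6. Alternatives were a pseudocount of 0.1, no filter or a filter of 5 FPKM, median-of-ratios rescaling, the compared groups alone, no variance trend, a robust fit, a replicate block, leaving out each library of the compared groups, leaving out 4 libraries with transcripts of other tissues, a Y-linked covariate and a length and GC correction (splines of 4 degrees of freedom). Rescaling together with that correction, scaling every library to 1 sum, the group order without ivabradine 1 and the muscle marker sum without Ckm and Acta1 were added after seeing the data. Named were, for each comparison, up to 4 called members in each direction with the largest fold change and no overlap, for each complex the 2 of smallest p in the F test and the most abundant one, the isoform pairs, the Sdh genes and Ndufa4. Other members, the promoters shown and the pathway genes were named after their values were seen. Values of 1 member and of 1 pathway gene are not reported here by name. The members and lists were chosen with earlier results of these data known.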

Additional observations from a re-analysis of the deposited data

Results flagged for a closer look

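In the test of isoproterenol against the mean of the 5 anti-arrhythmic groups 15 of the 83 members were higher and 0 lower (limma on log2(FPKM + 1), adjusted p under 0.05). This is 18.1% of the members, all of them higher. Of all genes 22.8% were called in that comparison, 9.51% higher and 13.3% lower. For Ndufa10 the isoproterenol libraries all lay above the 15 other drug libraries. The count was 4 without isoproterenol 2, 5 without isoproterenol 3, 36 without ivabradine 1 and 2 without the 4 libraries that held transcripts of other tissues, and the cause was not tested. The shares of all genes in these smaller fits are not given here.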

How the results depend on the processing

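Counts of called members depended on the scale, on transcript length and on single libraries, and the cause was not tested. For fits that left out libraries the shares of all genes are not given here, and fewer libraries lower the power for every gene. Leaving out 1 library of the compared groups gave 5 to 16 called members with isoproterenol (15 in full), 7 to 40 with amiodarone (36), 9 to 24 with metoprolol (23), 6 to 13 with propranolol (13), 4 to 35 with lidocaine (34), 6 to 34 with ivabradine (9), 4 to 36 for isoproterenol against the anti-arrhythmic mean (15), 8 to 42 for the F test over 7 groups (22) and 0 for that over 5 groups. Without the 4 libraries with other tissues' transcripts the counts were 4 with isoproterenol, 3 with amiodarone, 4 with propranolol, 2 against the anti-arrhythmic mean and 3 over 7 groups. Median-of-ratios rescaling left 8 with amiodarone, 8 with metoprolol, 7 with propranolol, 8 with lidocaine and 13 over 7 groups. Without a filter 20 members passed with amiodarone, 8 with propranolol, 15 with lidocaine and 10 over 7 groups. The length and GC correction gave 44 with isoproterenol, 21 with amiodarone, 13 with metoprolol, 16 with lidocaine, 19 with ivabradine, 45 against the anti-arrhythmic mean, 44 over 7 groups and 1 over 5 groups. With rescaling added these were 57 with isoproterenol, 12 with amiodarone, 27 with propranolol, 22 with lidocaine, 29 with ivabradine, 45 against the anti-arrhythmic mean, 48 over 7 groups and 1 over 5 groups. Fits of the compared groups alone gave 9 with isoproterenol and 2 with ivabradine, the Y-linked covariate 21 with propranolol and 17 with lidocaine, and 1 sum per library 20 with amiodarone, 18 with lidocaine and 24 against the anti-arrhythmic mean. With the replicate number as a block 12 members passed over 7 groups, and same-numbered libraries did not deviate together (63 pairs, correlations of -0.54 to 0.29). Other block counts were within 1.5 times the full ones except those named here. Under rescaling with the length and GC correction the fold change turned positive for Atp5e (0.046), Cox6b1 (0.072), Cox6c (0.068), Cox8a (0.047), Ndufa1 (0.029), Ndufa11 (0.074), Ndufa7 (0.064) and Uqcr11 (0.077) with lidocaine, Cox6c with amiodarone (0.0052), Cox8a (0.025) and Uqcr11 (0.016) with metoprolol, Cox8a (0.036) and Ndufa7 (0.0035) with propranolol, and Cox8a (0.032) and Ndufa4l2 (0.025) with isoproterenol. The level of a complex minus control after rescaling was 0.082, -0.090, -0.020 and -0.076 for complex I with isoproterenol, metoprolol, propranolol and lidocaine, 0.14, -0.051, 0.0053 and -0.030 for complex III and 0.026, -0.14, -0.11 and -0.14 for complex IV with the same drugs. For complex II it was 0.27 with isoproterenol, 0.14 with amiodarone, 0.14 with metoprolol, 0.18 with propranolol, 0.17 with lidocaine and 0.15 with ivabradine, and for complex V 0.14 with isoproterenol, -0.013 with amiodarone, -0.013 with metoprolol, 0.059 with propranolol and 0.00096 with lidocaine. Without the 4 libraries the difference from control was -0.067 for Cox7a1/Cox7a2 with isoproterenol and 0.018 for Cox4i2/Cox4i1 with amiodarone. Leaving out 1 library moved Atp5g1/Atp5g3 between -0.046 and 0.040 (isoproterenol against the 15 anti-arrhythmic libraries), Cox8b/Cox8a between -0.012 and 0.18 with amiodarone and between -0.021 and 0.071 with lidocaine, Cox6a2/Cox6a1 between -0.16 and 0.0025 and Cox4i2/Cox4i1 between -0.12 and 0.048 with lidocaine. Over all alternatives and named members the outcome equalled that of the full fit in 1669 fits, passing in both or in neither. A call was lost in 455 and gained in 16, and in the 15 named above under rescaling with the length and GC correction the sign turned and the value did not pass. The depth is unknown, which limits what can be said of the least abundant members.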
